A study of Mus musculus with 12 samples.

Results

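The complement genes described here are 31 genes of the mouse liver, taken by gene symbol from the count and TPM tables so that they cover recognition, activation, the terminal pathway, regulation and the receptors of the small complement fragments. They are 31 of the 56748 genes in the tables, and all 31 were among the 15465 genes with enough counts to be tested. For description they were kept apart by source: 22 genes whose protein hepatocytes secrete, 6 genes of macrophages and other myeloid cells (C1qa, C1qb, C1qc, Cfp, C3ar1 and C5ar1) and 3 genes of other or mixed origin (Cfd, Cd55 and Cd59a). The RNA came from flash-frozen livers of mice that carried pancreatic ductal adenocarcinoma (PDAC) and were 12 weeks old. Each of 4 groups had 3 libraries. The isotype group is labelled both as isotype control and as no treatment, and the labels do not settle which it was. The agoCD40 group received an agonistic antibody against CD40, the antiIL1R1 group received an antibody against the interleukin-1 receptor IL-1R1, and the Combo group received both. All groups therefore carried the tumour, and the labels give no tumour model, strain, sex, dose or time after treatment. The labels do not say which library came from which animal, so the p-values below measure the spread between libraries, which may be technical in part.

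Complement is a cascade of plasma proteins that marks microbes and dying cells for uptake, attracts leukocytes and can perforate membranes. The classical, lectin and alternative routes each assemble an enzyme that cleaves C3, and a further enzyme cleaves C5 and starts the membrane attack complex of C5b to C9. The liver is the main source of most of these plasma proteins, and several of them are acute-phase proteins, while C1q and properdin are made largely by macrophages and other myeloid cells.

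Totals ranged from 18681390 to 27118712 counts per library, and counts of mitochondrial genes took between 6.23% and 14.8% of them. Isotype replicate 2 (14.1%) and antiIL1R1 replicate 2 (14.8%) had the largest mitochondrial shares. The hepatocyte markers were present in every group: albumin (Alb) stood between 35670 and 60490 CPM (counts scaled to a common library total by the TMM method), and the hepatocyte factor Hnf4a between 392 and 729 CPM. In bulk tissue, fewer cells of a type and less RNA per cell cannot be told apart.

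By level per transcript length (TPM) in the isotype livers, the genes spanned more than 3 orders on a decimal scale. Vitronectin (Vtn, an inhibitor of the terminal complex) was highest at 2240 ± 618 TPM (SD, n = 3), followed by C3, the central component, at 1675 ± 968 TPM and clusterin (Clu, another inhibitor of the terminal complex) at 994 ± 434 TPM. C4b at 821 ± 476 TPM and factor B (Cfb) at 797 ± 154 TPM came next, and all of these neighbours overlapped between libraries. Serping1 (C1 inhibitor, 643 TPM), C8g (507 TPM), C9 (493 TPM), Mbl2 (416 TPM), Cfi (367 TPM) and C8a (348 TPM) formed the next tier. Hc, the mouse gene of C5, stood at 245 ± 22.2 TPM beside C4bp (244 TPM), Masp2 (227 TPM), Mbl1 (219.8 TPM), C8b (191 TPM), C1s1 (177 TPM) and C1ra (120.1 TPM). The 3 chains of C1q were close to each other, with C1qa at 109.7 ± 44.3, C1qb at 90.1 ± 43.9 and C1qc at 80.1 ± 42.7 TPM. C6 (72.0 TPM), C2 (66.5 TPM), C1rl (56.3 TPM), Cd59a (52.7 TPM), Masp1 (42.8 TPM) and Cfp (27.7 TPM) were lower. The lowest were Cd55 (8.61 TPM), C3ar1 (1.14 TPM), C5ar1 (1.05 TPM) and Cfd (0.53 TPM, with 1 library at 0). The 22 hepatocyte-secreted genes together made up 1.05% to 1.17% of all TPM in the isotype libraries, 0.89% to 0.997% in agoCD40, 0.913% to 0.972% in antiIL1R1 and 0.835% to 0.95% in Combo.

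**Figure D1:**
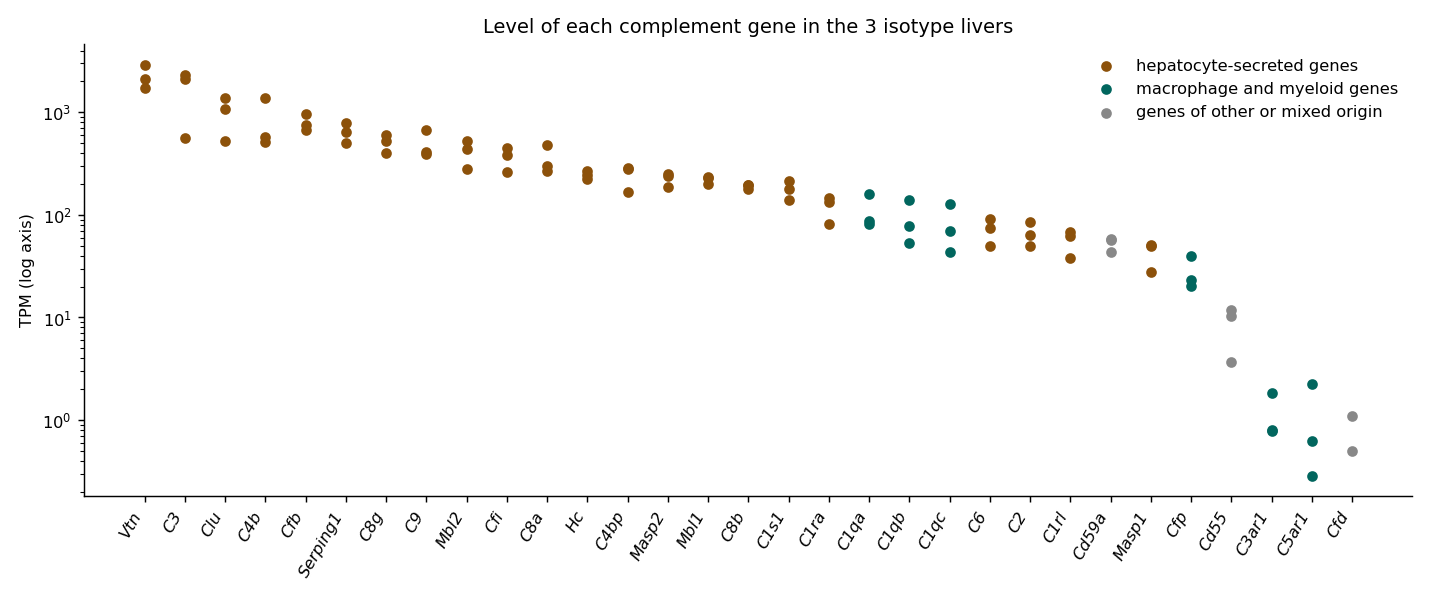
Level of each of the 31 complement genes in the 3 isotype livers, in TPM on a log axis, 1 point per library, coloured by cell source and ordered by the mean. Vtn and C3 lead with means of 2240 and 1675 TPM, the C1q genes lie between 80.1 and 109.7 TPM, and Cfd is last (its library at 0 is not drawn).

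Promoter windows were read for the genes on which the results below turn: Hc, the only complement gene past the test, C1qb and C1qc, which had the smallest interaction p of the myeloid genes, and Mbl1 with Mbl2, a related pair with different values. RefSeq windows (GRCm38.p6) of 300 bases, from 250 bases before to 50 bases after the start of the gene, were found for 23 of the 31 genes. The counts are on GRCm39, so these coordinates are not those of the count tables. Capitals mark matches, on either strand, to 4 short motifs: GAGGAAG (the core of a PU.1 site), GTTAAT (an HNF1 half-site), TTCNNNGAA (STAT) and GGGANNNNCC (NF-kB). The windows lie at chr2:35061363-35061662 (minus strand) for Hc, chr4:136886151-136886450 (minus) for C1qb, chr4:136892865-136893164 (minus) for C1qc, chr14:41151206-41151505 (plus) for Mbl1 and chr19:30232678-30232977 (plus) for Mbl2.
Hc: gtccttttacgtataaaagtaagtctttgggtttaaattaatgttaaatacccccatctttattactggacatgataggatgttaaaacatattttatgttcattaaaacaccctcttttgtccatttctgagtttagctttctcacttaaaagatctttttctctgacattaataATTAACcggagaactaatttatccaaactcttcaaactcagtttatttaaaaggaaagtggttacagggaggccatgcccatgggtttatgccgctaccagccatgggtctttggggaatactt
C1qb: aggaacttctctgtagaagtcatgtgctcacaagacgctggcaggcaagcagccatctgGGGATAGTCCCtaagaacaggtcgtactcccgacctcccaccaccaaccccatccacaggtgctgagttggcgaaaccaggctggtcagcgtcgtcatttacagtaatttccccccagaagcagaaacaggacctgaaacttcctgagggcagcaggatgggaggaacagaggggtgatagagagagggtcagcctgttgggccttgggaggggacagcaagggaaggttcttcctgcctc
C1qc: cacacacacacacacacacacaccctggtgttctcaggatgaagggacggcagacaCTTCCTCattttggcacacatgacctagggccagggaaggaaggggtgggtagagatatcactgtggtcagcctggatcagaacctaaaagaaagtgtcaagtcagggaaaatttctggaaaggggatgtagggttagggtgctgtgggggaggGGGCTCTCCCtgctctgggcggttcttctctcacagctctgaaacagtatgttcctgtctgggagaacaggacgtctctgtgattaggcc
Mbl1: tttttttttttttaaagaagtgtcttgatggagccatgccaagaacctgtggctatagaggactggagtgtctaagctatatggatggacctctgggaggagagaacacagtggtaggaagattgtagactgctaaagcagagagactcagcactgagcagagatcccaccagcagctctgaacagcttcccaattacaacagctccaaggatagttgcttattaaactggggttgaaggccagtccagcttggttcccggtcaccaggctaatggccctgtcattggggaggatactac
Mbl2: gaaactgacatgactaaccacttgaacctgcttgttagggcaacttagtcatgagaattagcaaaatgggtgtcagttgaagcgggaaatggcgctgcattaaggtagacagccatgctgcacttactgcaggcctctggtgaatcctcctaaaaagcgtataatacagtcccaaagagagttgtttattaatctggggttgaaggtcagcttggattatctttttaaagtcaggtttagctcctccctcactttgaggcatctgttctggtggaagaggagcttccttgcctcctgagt
The Hc window held 1 HNF1 half-site, in the reverse orientation 74 bases before the start. The C1qb window held 2 overlapping NF-kB matches at 191 and 190 bases before the start. The C1qc window held a reverse PU.1 core at 194 and a reverse NF-kB match at 40 bases before the start. None of these letters occurred in the Mbl1 and Mbl2 windows. A complement gene was counted if any of its windows matched, while the share over all genes is per single window, so the 2 are not like for like. Over the 23 genes with a window, the HNF1 half-site occurred in 8 (C1ra, C4bp, C8a, C8b, Cd55, Cfp, Hc and Vtn), and 7.1% of the 32851 windows of all genes held it. STAT letters occurred in 4 (C1ra, C8a, Masp2 and Vtn; 8.3% of all windows), NF-kB letters in 5 (C1qb, C1qc, C1s1, C3 and Cd55; 20.7%) and the PU.1 core in 1 (C1qc; 13.6%). These matches describe letters in a window and are not evidence of binding.

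Across the comparisons, few complement genes passed the test. A gene was called at a Benjamini-Hochberg adjusted p under 0.05 in edgeR's quasi-likelihood test over all 15465 genes. For agoCD40 against isotype, the effect of the CD40 agonist alone, 0 of 31 complement genes were called, against 0.718% of all genes tested. With antiIL1R1 alone 0 differed from isotype past the threshold (0% of all genes). In Combo against agoCD40, which asks what the added IL-1R1 antibody changes, 0 were called (0.00647% of all genes). For Combo against isotype 1 gene was called, Hc (0.407% of all genes). For Combo against antiIL1R1 (0.175% of all genes) and for the interaction of the 2 antibodies (0.00647%) 0 were called. The interaction is the difference between the Combo effect and the sum of the 2 single effects on the log2 scale.

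At an unadjusted edgeR p under 0.05, 10 of the 31 genes passed for agoCD40 against isotype (10.2% of all genes did), 3 with antiIL1R1 alone (3.65%) and 8 between Combo and agoCD40 (6.21%). For Combo against isotype 9 passed (11.5%), for Combo against antiIL1R1 11 (15.3%) and for the interaction 5 (7.51%). DESeq2 gave adjusted values for 30 of the 31 genes and none for Cfd. It called C4b and Hc for agoCD40 against isotype (2.47% of all genes), 0 with antiIL1R1 alone (0.0194%), 0 between Combo and agoCD40 (0.506%), 1 for Combo against antiIL1R1 (Hc; 2.71%) and 0 for the interaction (0.548%). For Combo against isotype DESeq2 called 7 (C4b, C8a, C9, Cfb, Cfi, Hc and Mbl1), all lower, where it called 2.11% of all genes. The limma test on log2(TPM + 1) called 1, Hc, for Combo against isotype (0.382% of all genes) and 0 in the other comparisons. The comparisons against isotype share the same 3 isotype libraries.

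**Figure D2:**
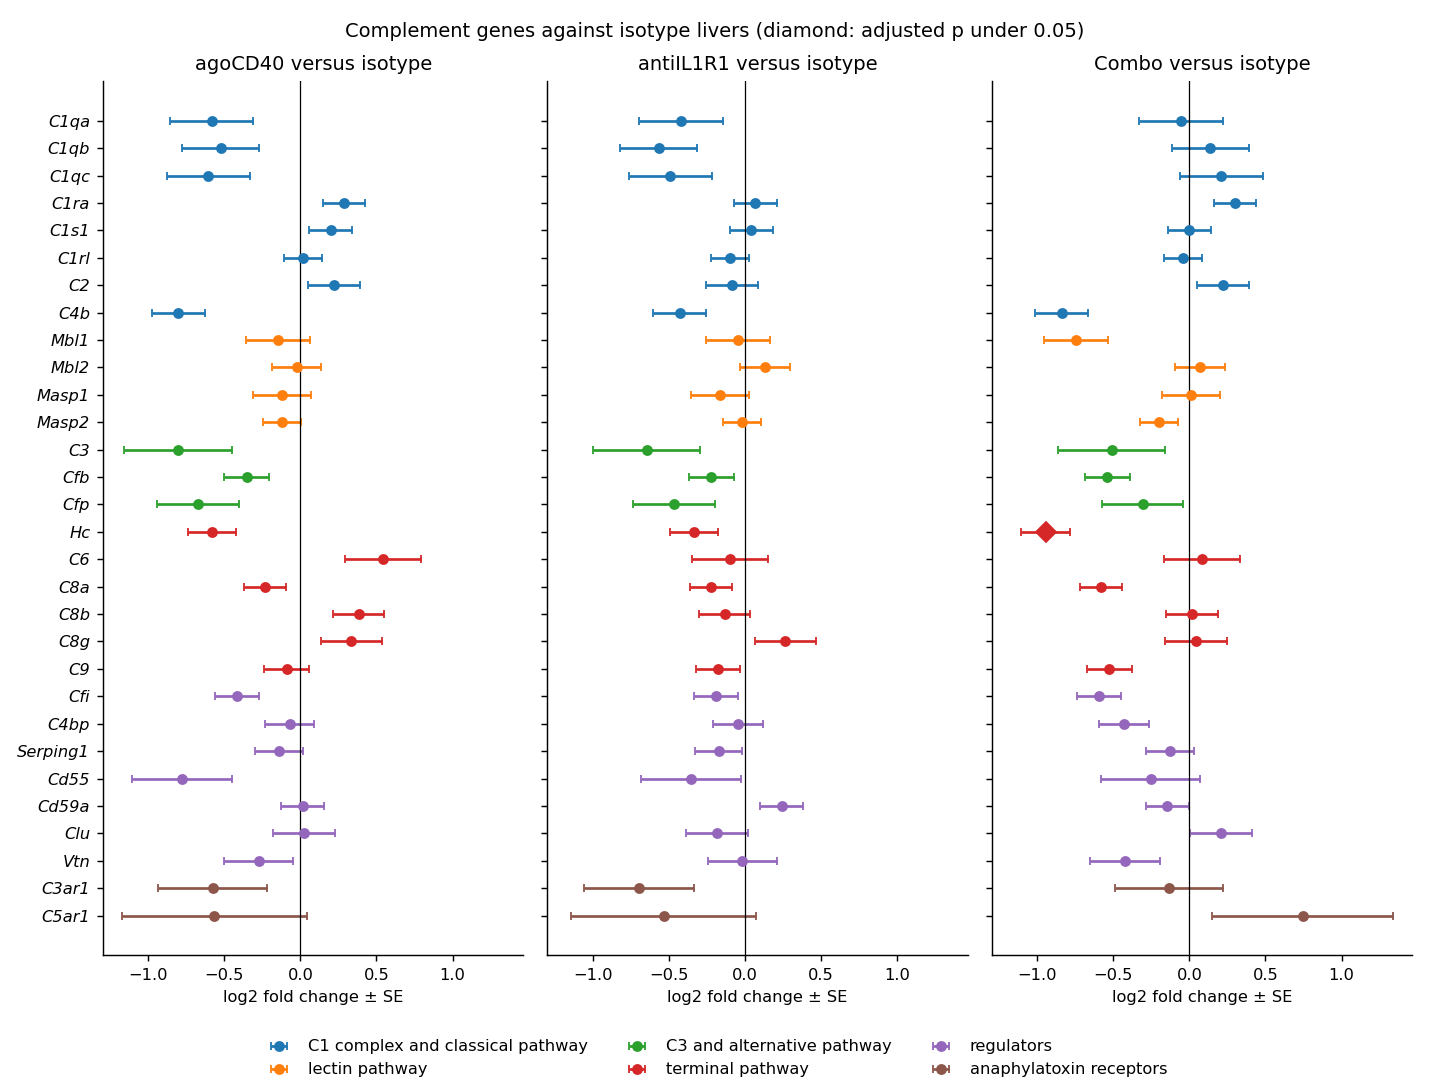
Log2 fold change with its standard error against the isotype livers for 30 complement genes (Cfd is left out because its values need a wider axis), in 3 panels by treatment and coloured by role. Only Hc in the Combo panel, at -0.94, is past the threshold (diamond), and the C1q genes lie below 0 with either antibody alone and near 0 in Combo.

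C5, the protein of Hc, is the component whose cleavage releases the leukocyte attractant C5a and starts the membrane attack complex. Hc measured 930.2, 779.8 and 872 CPM in the isotype livers, 634, 624 and 471 CPM in agoCD40, 765, 602 and 679 CPM in antiIL1R1 and 438, 429 and 475 CPM in Combo. Every Combo library lay below every isotype and antiIL1R1 library, whereas Combo and agoCD40 overlapped. Hc fell by 0.94 ± 0.16 on the log2 scale (SE, 3 against 3 libraries) in Combo against isotype, to 0.519 of the isotype level (edgeR adjusted p = 0.0258, 95% interval -1.29 to -0.60). The values for the single antibodies were -0.58 ± 0.16 for agoCD40 (edgeR adjusted p = 0.142) and -0.34 ± 0.16 for antiIL1R1 (edgeR adjusted p = 0.987). The interaction estimate was -0.03 ± 0.22, with an interval from -0.51 to 0.45, so a departure from the sum of the single effects was not resolved at this number of libraries. The Combo call for Hc was lost in 8 of 16 alternatives, among them scaling to the total count (adjusted p = 0.0686), only the 2 groups in the fit (0.0878) and leaving out isotype replicate 1 (0.0919), isotype replicate 3 (0.0612), Combo replicate 1 (0.128), Combo replicate 2 (0.147) or Combo replicate 3 (0.0744), while the log2 value stayed between -1.02 and -0.82 over 16 alternatives.

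The other 5 genes of the terminal pathway fell into different patterns. C9, the subunit that lines the pore, measured 577, 639 and 551 CPM in isotype, 636, 515 and 510 CPM in agoCD40, 474, 530 and 560.2 CPM in antiIL1R1 and 374, 397 and 456 CPM in Combo. The Combo libraries of C9 lay below all 9 others, with a log2 difference of -0.53 ± 0.15 against isotype (edgeR adjusted p = 0.177) and -0.44 ± 0.15 against agoCD40 (edgeR adjusted p = 0.634). C8a, the alpha chain of C8, showed 742, 696 and 795 CPM in isotype and 513, 445 and 533 CPM in Combo, also below every library of the other groups (agoCD40 from 565 to 687, antiIL1R1 from 604 to 676 CPM), at -0.58 ± 0.14 against isotype (edgeR adjusted p = 0.116). By contrast C8b, the beta chain of the same protein, was at 293, 272 and 316 CPM in isotype and 302, 246 and 344 CPM in Combo, a difference of 0.02 ± 0.17. In agoCD40 C8b was at 412, 392 and 345 CPM, above all isotype libraries, at 0.38 ± 0.17 (edgeR adjusted p = 0.449). The gamma chain, C8g, varied widely within isotype (268 to 473 CPM) and stood at 0.04 ± 0.20 in Combo. C6, which joins C5b first, was at 154, 153 and 187 CPM in isotype and 318, 246 and 154 CPM in agoCD40, a difference of 0.54 ± 0.25 (edgeR adjusted p = 0.487) with overlapping libraries. All 6 terminal genes had a negative log2 value in Combo against agoCD40, from -0.46 to -0.29, with a median of -0.37 beside 0.01 over all genes. None of them was called there by edgeR or DESeq2. At an unadjusted edgeR p under 0.05 there were 4, where 6.21% of all genes passed.

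C4b, the gene of the C4 protein that the classical and lectin routes cleave, had the smallest p of the complement genes for agoCD40 against isotype. It measured 2064, 1726 and 2201 CPM in isotype, 1155, 1342 and 938 CPM in agoCD40, 1537, 1293 and 1620 CPM in antiIL1R1 and 1265, 1030 and 1053 CPM in Combo. All libraries of the 3 treated groups lay below the lowest isotype library. The log2 difference from isotype was -0.80 ± 0.17 in agoCD40 (edgeR adjusted p = 0.0617), -0.43 ± 0.17 in antiIL1R1 (edgeR adjusted p = 0.987) and -0.84 ± 0.17 in Combo (edgeR adjusted p = 0.0627). DESeq2 put C4b past the threshold in agoCD40 (adjusted p = 0.000959) and in Combo (0.000472), and without isotype replicate 2 edgeR did so in agoCD40 (0.0488). Of 17 alternatives, C4b was past the threshold in 4 for agoCD40 and in 3 for Combo. With limma on log2(TPM + 1) the adjusted p was 0.96 in agoCD40 and 0.362 in Combo. With only the 2 groups in the edgeR fit it was 0.25 and 0.177. C4b shares 48.3% of its transcript words of 31 bases with its near copy C4a in the GENCODE M21 transcripts, so the split of reads between them is uncertain. C4a was far lower, at 19.9, 38.2 and 14.4 CPM in isotype and 6.70, 7.05 and 8.81 CPM in Combo. With both summed the C4b value was -0.81 in agoCD40 (adjusted p = 0.0572) and -0.85 in Combo (0.059).

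**Figure D3:**
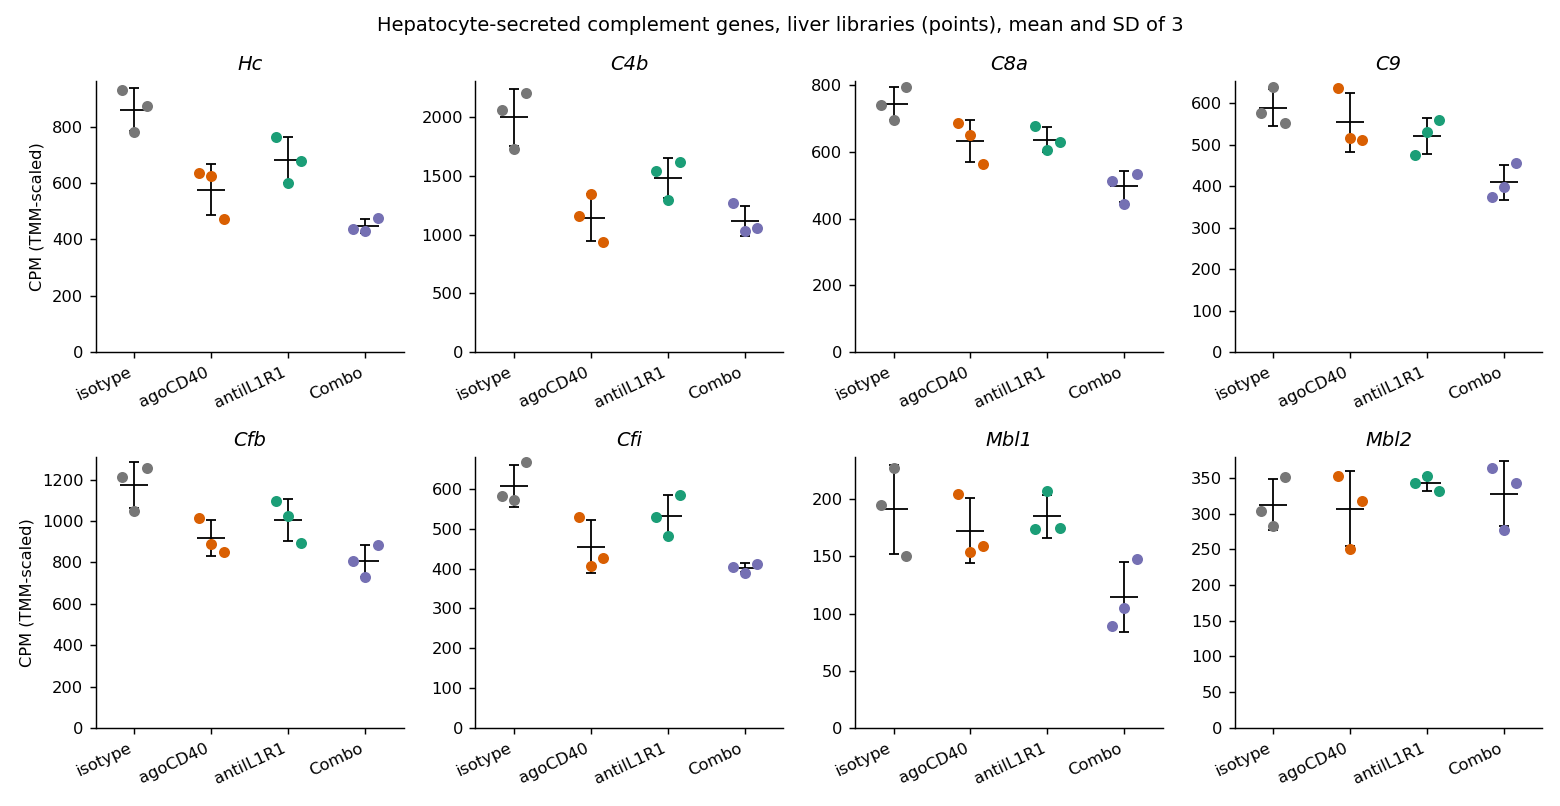
CPM of 8 hepatocyte-secreted complement genes in each library (points), with the mean and SD of the 3 libraries of each group. The Combo libraries of Hc lie between 429 and 475 CPM against 779.8 to 930.2 CPM in isotype, Mbl1 is lowest in Combo, and Mbl2 overlaps between all groups.

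The remaining hepatocyte genes of the classical route did not follow C4b. C1ra and C1s1 encode the proteases of the C1 complex, and C1rl encodes a relative of C1r. C1ra was at 329, 264 and 295 CPM in isotype, 372, 364 and 348 CPM in agoCD40 and 352, 362 and 379.9 CPM in Combo, so both groups lay above isotype, at 0.29 ± 0.14 (edgeR adjusted p = 0.521) and 0.30 ± 0.14 (0.435). C1s1 (0.20 ± 0.14 in agoCD40 and 0.00 ± 0.14 in Combo), C1rl (0.02 ± 0.13 and -0.04 ± 0.13) and C2, the protease that pairs with C4b (0.22 ± 0.17 and 0.22 ± 0.17), overlapped with isotype. C1ra shares 56.9% of its words of 31 bases with C1rb and C1s1 33.5% with C1s2, so reads of these pairs may also be split.

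In the lectin route, the mannose-binding lectins Mbl1 and Mbl2, which recognise sugars on microbes, had different values. Mbl1 measured 195, 228 and 151 CPM in isotype, 205, 154 and 159 CPM in agoCD40, 174, 207 and 175 CPM in antiIL1R1 and 89.2, 105 and 148 CPM in Combo. Every Combo library of Mbl1 was below the 9 others, with log2 differences of -0.74 ± 0.21 against isotype (edgeR adjusted p = 0.183), -0.60 ± 0.21 against agoCD40 (0.691) and -0.70 ± 0.21 against antiIL1R1 (0.185). Mbl2 was at 303, 282 and 352 CPM in isotype, 353, 250.1 and 318 CPM in agoCD40, 342, 353 and 332 CPM in antiIL1R1 and 364, 277 and 343 CPM in Combo. The groups of Mbl2 overlapped, at 0.07 ± 0.16 in Combo against isotype (95% interval -0.28 to 0.41). The difference between the 2 genes was not tested. The proteases that the lectins activate, Masp1 (0.01 ± 0.19 in Combo against isotype) and Masp2 (-0.20 ± 0.12), did not pass the test, although the Masp2 libraries of Combo (174, 169 and 186 CPM) lay just below those of isotype (194, 227 and 187 CPM).

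C3, the protein on which all routes converge, varied widely within the isotype group. It measured 8333, 3207 and 8839 CPM in isotype, 3350, 4532 and 3793 CPM in agoCD40, 6561, 3132 and 3340 CPM in antiIL1R1 and 5438, 4307 and 4571 CPM in Combo. Isotype replicate 2, which had a large mitochondrial share, was well below the other isotype libraries and within the range of the treated ones. The C3 difference was -0.80 ± 0.35 in agoCD40 against isotype (edgeR adjusted p = 0.451) and -0.51 ± 0.35 in Combo (0.626). Factor B (Cfb), the protease of the alternative C3 convertase, was tighter, at 1214, 1048 and 1257 CPM in isotype, 1015, 891 and 849.8 CPM in agoCD40 and 805, 729 and 886 CPM in Combo. Both groups of Cfb lay below isotype, at -0.35 ± 0.15 (edgeR adjusted p = 0.431) and -0.54 ± 0.15 (0.169).

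Factor D (Cfd), the protease that cleaves factor B and a gene best known from adipocytes, was near 0 except in 1 library. It measured 0.59, 0.40 and 0 CPM in isotype, 0.13, 0.04 and 0 CPM in agoCD40, 0.55, 0.45 and 8.85 CPM in antiIL1R1 and 0.08, 0.16 and 0.13 CPM in Combo. The antiIL1R1 value of 3.35 ± 1.23 against isotype (edgeR adjusted p = 0.987) came with 223 counts in antiIL1R1 replicate 3 beside 12 and 11 in the other replicates, and it was 0.62 without that library. Of the 7 adipocyte markers, Cidec was also highest in antiIL1R1 replicate 3, at 6.35 CPM (160 counts) beside 0.41 to 2.31 CPM in the 11 other libraries. Plin1 was at 0 in all 12 libraries and Adipoq between 0 and 0.07 CPM. The summed level of the 7 markers, most of it from Fabp4 in most libraries, was 11.2 CPM in antiIL1R1 replicate 3, within the range of the 12 libraries (5.02 to 16.5 CPM). The part of adipocyte RNA in the Cfd value was not tested.

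Among the regulators, factor I (Cfi), the protease that inactivates C3b and C4b, measured 583, 572 and 667 CPM in isotype, 530.2, 407 and 428 CPM in agoCD40, 531, 481 and 585 CPM in antiIL1R1 and 404, 389.9 and 412 CPM in Combo. The agoCD40 and Combo libraries of Cfi lay below isotype, at -0.42 ± 0.15 (edgeR adjusted p = 0.301) and -0.59 ± 0.15 (0.126). C4bp, a cofactor of factor I, was at 584, 537 and 548 CPM in isotype and 394, 382 and 463 CPM in Combo, -0.43 ± 0.16 (edgeR adjusted p = 0.332), and at 476 to 633 CPM in agoCD40, -0.07 ± 0.16. Serping1, which blocks C1r and C1s, overlapped between all groups (-0.13 ± 0.16 in Combo). Clu was at 957 to 1696 CPM in isotype and 1427 to 1674 CPM in Combo (0.21 ± 0.20), and Vtn at 1992 to 3369 and 1706 to 2058 CPM (-0.42 ± 0.23). The membrane regulators Cd55, which dissociates convertases, and Cd59a, which blocks the pore, were at 8.49 to 18.2 and 60.7 to 74.4 CPM in isotype. Cd55 stood at -0.78 ± 0.33 in agoCD40 (edgeR adjusted p = 0.432), with overlapping libraries, and Cd59a at 0.01 ± 0.14.

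Counted over the 31 genes, 9 had all Combo libraries below all isotype libraries (C4b, Hc, C8a, C9, Cfb, Cfi, C4bp, Masp2 and Mbl1), all hepatocyte-secreted, where 7.57% of all genes tested did. For agoCD40 against isotype 7 did (C4b, Hc, C8a, Cfb, Cfi, C1qb and Cfp; 6.84% of all genes), for Combo against agoCD40 5 (C8a, C8b, C9, C4bp and Mbl1; 7.07%) and for Combo against antiIL1R1 10 (9.92%). The median log2 value of the 22 hepatocyte-secreted genes was -0.11 in agoCD40, -0.12 in antiIL1R1 and -0.16 in Combo against isotype, beside medians of all genes of -0.02, -0.02 and -0.02. Under scaling to the total count the median of all genes rose to 0.11 in Combo against isotype, and that of the hepatocyte-secreted genes was then -0.03. The marker list of hepatocytes was lower in agoCD40 and Combo too, but not in antiIL1R1: its summed level was 87690 to 104000 CPM in isotype, 67090 to 81960 in agoCD40, 93240 to 102700 in antiIL1R1 and 66330 to 73010 in Combo, and 8 of its 12 genes had a negative value in Combo against isotype, with a median of -0.34. Its median was -0.20 in agoCD40 and 0.09 in antiIL1R1 against isotype (8 of 12 positive), where 18 of the 22 hepatocyte-secreted complement genes had a negative value. Of the 12, edgeR and DESeq2 called 0 in Combo against isotype. An unadjusted edgeR p under 0.05 was seen for 7, 1 higher and 6 lower, where 11.5% of all genes passed. Alb differed by -0.45 ± 0.17 (edgeR adjusted p = 0.331). The part of these markers in the complement values was not tested.

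The 6 myeloid genes had values on both sides of isotype in Combo, and none passed the test in any comparison. C1qa, C1qb and C1qc, the chains of the molecule that recognises antibody and dying cells, had lower values with either antibody alone and isotype-like values in Combo. C1qa measured 56.1, 76.8 and 101.7 CPM in isotype, 46.9, 45.2 and 64.5 CPM in agoCD40, 35.0, 66.8 and 73.4 CPM in antiIL1R1 and 79.7, 81.0 and 65.2 CPM in Combo. C1qb measured 53.6, 53.4 and 93.2 CPM in isotype, 39.4, 51.9 and 48.0 CPM in agoCD40, 30.99, 49.8 and 54.4 CPM in antiIL1R1 and 85.4, 74.2 and 60.9 CPM in Combo. C1qc measured 54.7, 48.9 and 96.9 CPM in isotype, 36.9, 44.8 and 50.2 CPM in agoCD40, 32.2, 53.0 and 57.7 CPM in antiIL1R1 and 89.8, 78.2 and 64.0 CPM in Combo. Isotype replicate 3 was the highest isotype library for all 3 chains, and the Combo libraries of all 3 lay above those of agoCD40 (7.64% of all genes tested had Combo above agoCD40 without overlap).

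For C1qc the log2 difference was -0.60 ± 0.27 in agoCD40 against isotype (edgeR adjusted p = 0.477), -0.49 ± 0.27 in antiIL1R1 against isotype (0.987), 0.21 ± 0.27 in Combo against isotype (0.825) and 0.81 ± 0.27 in Combo against agoCD40 (0.634). C1qb gave 0.66 ± 0.26 in Combo against agoCD40 (edgeR adjusted p = 0.753) and C1qa 0.53 ± 0.27 (0.809). The interaction estimates were 0.95 ± 0.39 for C1qa (edgeR adjusted p = 0.642), 1.23 ± 0.36 for C1qb (0.507) and 1.30 ± 0.39 for C1qc (0.507). Cfp (properdin, which stabilises the alternative convertase) was at 24.6, 33.0 and 40.5 CPM in isotype, 18.7, 19.3 and 23.5 CPM in agoCD40, 14.1, 32.4 and 24.6 CPM in antiIL1R1 and 31.8, 24.6 and 23.0 CPM in Combo, at -0.67 ± 0.27 in agoCD40 against isotype (edgeR adjusted p = 0.393). The receptors of the fragments C3a and C5a were low: C3ar1 lay between 1.87 and 6.05 CPM and C5ar1 between 0.68 and 4.45 CPM over the 12 libraries. Their interaction estimates were 1.14 ± 0.51 and 1.84 ± 0.86 (edgeR adjusted p = 0.656 and 0.667).

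All 6 myeloid genes had a negative value with agoCD40 alone (median -0.58) and with antiIL1R1 alone (median -0.51), and all 6 a positive value in Combo against agoCD40 (0.60), in Combo against antiIL1R1 (0.63) and in the interaction (1.18, beside 0.03 over all genes). None passed the threshold of the main edgeR fit or of DESeq2 in any of these. With no filter on low counts edgeR called C1qc in Combo against agoCD40, and C1qb and C1qc in Combo against antiIL1R1 and in the interaction. That setting also called more of all genes there: 197 beside 1, 742 beside 27 and 232 beside 1 in the main fit. Without isotype replicate 3 the agoCD40 median was -0.22 and the antiIL1R1 median -0.22, and without antiIL1R1 replicate 1 the antiIL1R1 median was -0.29 and that of Combo against antiIL1R1 0.41. Under the 21 alternatives the interaction median stayed between 0.83 and 1.38. The 6 genes were measured in the same libraries and are not independent observations.

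**Figure D4:**
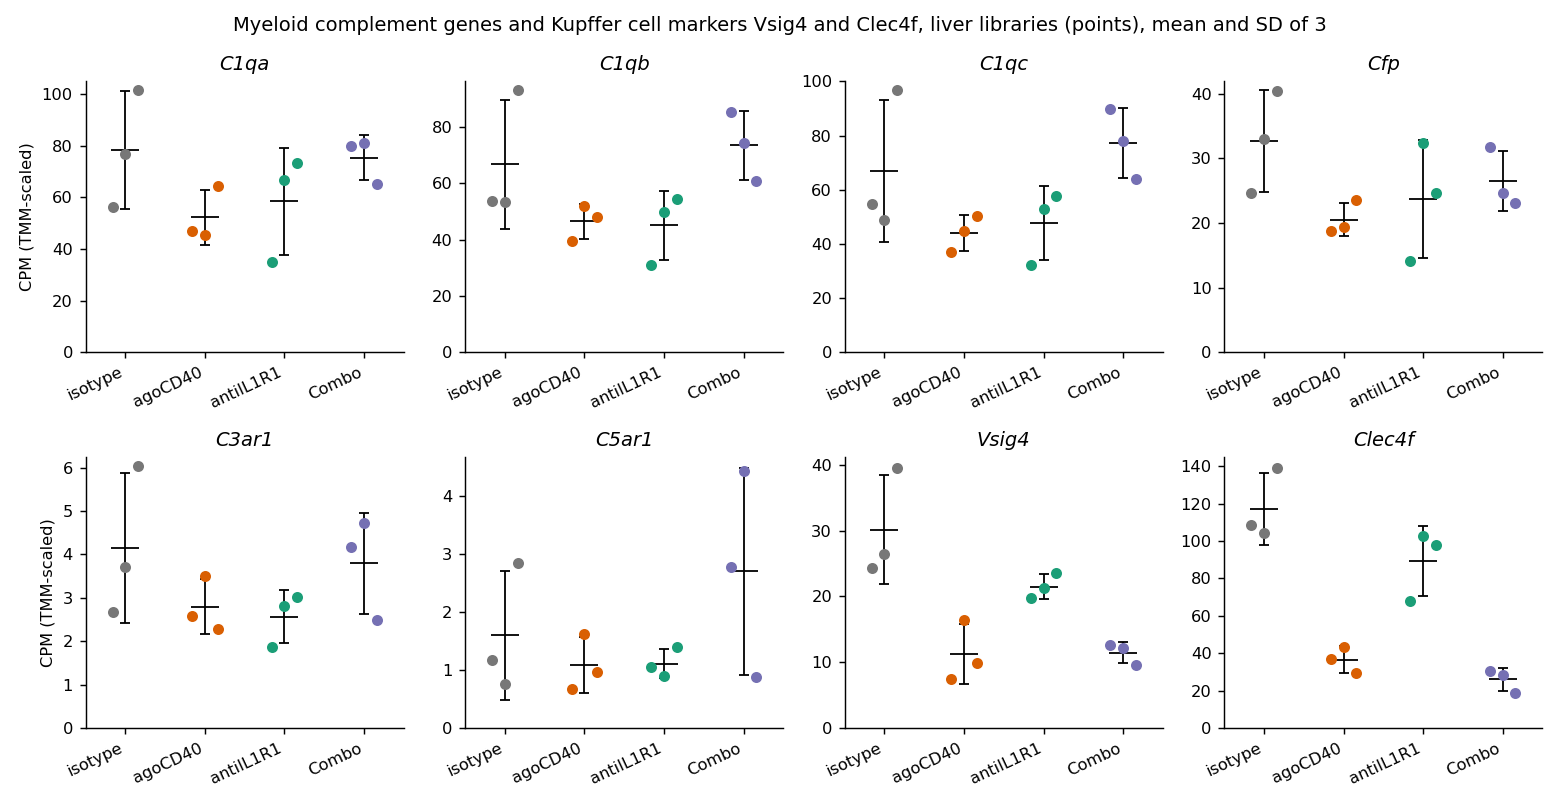
CPM of the 6 myeloid complement genes and of the Kupffer cell genes Vsig4 and Clec4f in each library (points), with the mean and SD of the 3 libraries of each group. In Combo the C1q genes lie between 60.9 and 89.8 CPM, above agoCD40, while Vsig4 (9.57 to 12.6 CPM) and Clec4f (18.9 to 30.4 CPM) remain at the level of agoCD40 or lower.

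Macrophage markers moved with the myeloid genes in part. Vsig4, the complement receptor by which Kupffer cells bind C3b, measured 24.3, 26.5 and 39.6 CPM in isotype, 7.47, 16.4 and 9.87 CPM in agoCD40, 19.7, 21.2 and 23.5 CPM in antiIL1R1 and 12.6, 12.1 and 9.57 CPM in Combo. Vsig4 fell by 1.42 ± 0.27 on the log2 scale in agoCD40 (edgeR adjusted p = 0.0295) and by 1.40 ± 0.27 in Combo (0.0473) against isotype. The Vsig4 calls were lost in 9 and in 12 of 16 alternatives, with log2 values from -1.80 to -1.17 and from -1.53 to -1.15. Over the 12 Kupffer cell markers, the summed level was 456 to 847 CPM in isotype, 298 to 403 in agoCD40, 423 to 492 in antiIL1R1 and 352 to 503 in Combo. Of these markers edgeR called 4 lower in agoCD40 and 4 lower in Combo against isotype (0.718% and 0.407% of all genes). The called markers were Clec4f, Cd163, Folr2 and Vsig4 itself in both, and no marker was at 0 in a group. Negative values against isotype were seen for 12 of 12 in agoCD40 (median -0.98) and in antiIL1R1 (-0.49). In Combo 9 of 12 were negative (median -0.25). Clec4f fell by 2.18 ± 0.23 in Combo (edgeR adjusted p = 0.00144), whereas Cd5l, another Kupffer cell gene, was at 88.7 to 136 CPM in Combo and 72.2 to 177 CPM in isotype (-0.12 ± 0.29). The 9 markers of monocytes and recruited macrophages summed to 76.2 to 201 CPM in isotype, 131 to 166 in agoCD40, 75.1 to 91.8 in antiIL1R1 and 176 to 224 in Combo. Most of this sum was Lyz2, with a mean of 100.3 CPM in isotype and 161.3 CPM in Combo. Of the 9, 7 had a positive and 2 a negative value in Combo against isotype. Ly6c2 was at 0 to 1.52 CPM in isotype and 2.36 to 4.28 CPM in Combo. Mean Ccr2 (3.59 and 2.11 CPM) and mean Itgam (3.14 and 1.81 CPM) were lower in Combo than in isotype. In the interaction 10 of 12 Kupffer cell markers and 9 of 9 monocyte markers had a positive value, beside 6 of 6 myeloid complement genes. Positive values in the interaction were not particular to macrophage lists: 8 of 8 markers of liver endothelium (median 0.80), 7 of 8 of stellate cells and fibroblasts (0.69), 6 of 6 of dendritic cells (0.36) and 8 of 10 of neutrophils (1.98) had them, and 0 of 8 of B cells and plasma cells. The endothelial markers also had 8 of 8 negative values in agoCD40 against isotype (median -0.48) and 8 of 8 positive values in Combo against agoCD40 (0.60). The part of any of these cell types in the C1q values was not tested.

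Of 33 further complement genes listed for comparison, 27 had enough counts to be tested, and C1rb, C1s2, Cd55b, Fcnb, Csmd1 and Ptx3 did not. For agoCD40 against isotype edgeR called 1, lower (Vsig4; 0.718% of all genes), and for Combo against isotype 2, both lower (Vsig4 and Apcs; 0.407%). It called 0 in the other comparisons. There 2 had an unadjusted edgeR p under 0.05 with antiIL1R1 alone (3.65% of all genes), 0 in Combo against agoCD40 (6.21%), 8 in Combo against antiIL1R1 (15.3%) and 1 in the interaction (7.51%). DESeq2 called 4 (C4a, Vsig4, Fcna and Apcs) for agoCD40 (2.47% of all genes) and 4 for Combo against isotype (C4a, Vsig4 and Apcs among them; 2.11%), all lower. It called 5 for Combo against antiIL1R1 (2.71%) and 1 (Itgb2) in the interaction (0.548%). Apcs, the gene of serum amyloid P, an acute-phase protein of the mouse that binds C1q, was at 114, 223 and 201 CPM in isotype, 106, 61.9 and 74.0 CPM in agoCD40, 87.8, 115 and 212 CPM in antiIL1R1 and 55.4, 55.4 and 57.2 CPM in Combo. Apcs fell by 1.68 ± 0.33 in Combo against isotype (edgeR adjusted p = 0.0498), and this call was lost in 11 of 16 alternatives. Fcna, a ficolin of macrophages that feeds the lectin route, was at 37.4, 36.8 and 41.0 CPM in isotype, 15.7, 25.8 and 24.6 CPM in agoCD40 and 21.5, 29.2 and 21.7 CPM in Combo, at -0.80 ± 0.19 (edgeR adjusted p = 0.0918) and -0.67 ± 0.19 (0.184). Cr1l, a membrane regulator of the mouse, was flat at 39.2 to 47.2 CPM over all libraries. The complement receptor gene Cr2, expressed by B cells, was under 1.32 CPM in every library (2.01 ± 0.76 in agoCD40, edgeR adjusted p = 0.358). C7 (0.45 to 1.80 CPM) and the collectin Colec11 (22.5 to 51.6 CPM) overlapped between groups.

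The ratio of the 2 deposited scales differed between libraries for some complement genes, as it did for 17.2% of all genes with enough counts. Counts per TPM, which rise with the transcript length that a quantifier assigns to a gene, were set relative to the median gene of the library and to the median library of the gene. Over the 12 libraries this value varied for C4b from 0.299 to 1.30, more than for 99.9% of the 8123 genes with a mean count over 200. C8a (0.401 to 1.05), Cfb (0.541 to 1.24), C9 (0.505 to 1.06), C8b (0.612 to 1.01) and Hc (0.763 to 1.23) followed, and these 6 were the complement genes with an SD over 0.2 on the log2 scale, of 28 with enough counts (17.2% of the 8123 genes had one). C1qa stayed between 0.986 and 1.05 and Mbl2 between 0.987 and 1.05. For C4b the value was 0.299 in isotype replicate 2, 0.312 in antiIL1R1 replicate 2, 0.436 in antiIL1R1 replicate 3, 0.465 in agoCD40 replicate 1 and 0.528 in agoCD40 replicate 3, and 0.851 to 1.30 in the other 7 libraries. The 5 low libraries are the 5 with the largest mitochondrial shares, from 10.9% to 14.8%, and the other 7 had 6.23% to 9.89%. GENCODE M21 lists 3 transcripts of C4b, the longest of 5379 and the shortest of 749 bases. The deposited counts are on GRCm39 and their annotation release is not known, so these transcripts may not be the ones counted. On the TPM scale C4b stood at 518, 1370 and 575 in isotype and 385, 997 and 982 in antiIL1R1, so the antiIL1R1 value against isotype was -0.04 in limma on log2(TPM + 1) beside -0.43 in the count fit, and the agoCD40 value was -0.53 beside -0.80. For Hc the 2 scales gave similar values in Combo against isotype. They were -1.01 in limma on log2(TPM + 1) (adjusted p = 0.0164) and -0.94 in the edgeR count fit (0.0258). The libraries with shorter assigned lengths are not spread evenly: 1 of 3 in isotype, 2 of 3 in agoCD40, 2 of 3 in antiIL1R1 and 0 of 3 in Combo. With the mitochondrial share as a covariate, edgeR called the same 7 genes for Combo against isotype that DESeq2 called, and 292 of all 15465 genes, where it called 63 without the covariate.

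**Figure D5:**
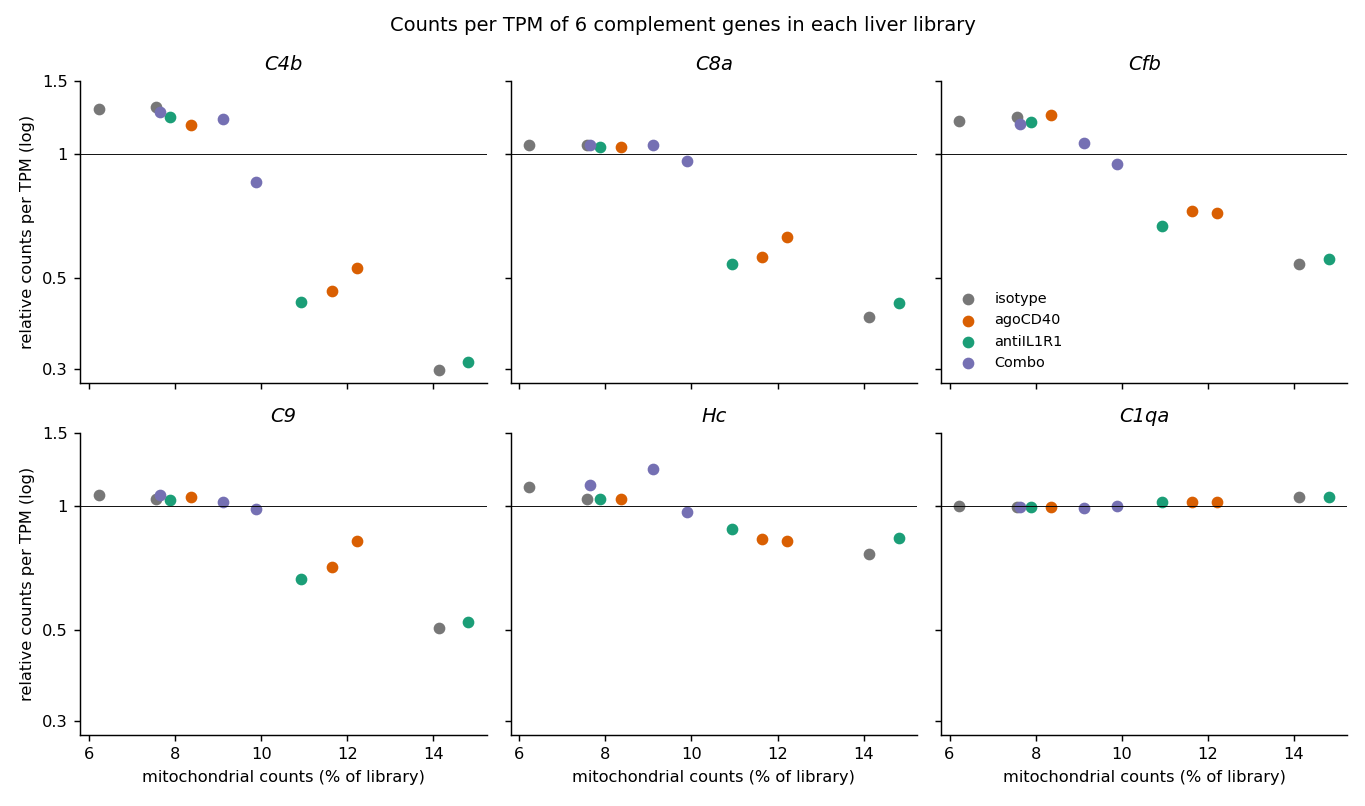
Counts per TPM of 6 complement genes, relative to the median gene of each library and the median library of each gene (log axis), against the share of mitochondrial counts, 1 point per library, coloured by group. C4b drops to between 0.299 and 0.528 in the 5 libraries with 10.9% to 14.8% mitochondrial counts, while C1qa stays between 0.986 and 1.05.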

How the data were processed

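Poly(A)-selected liver RNA was sequenced for 12 libraries (4 groups of 3), made with NEBNext Ultra II kits from RNA with an integrity number above 7.0, per the labels' protocols. The authors deposited 1 table of estimated counts per gene, not scaled between libraries, and 1 table of TPM. Per the submitters' processing notes the genome was GRCm39 and the tools were FastQC 0.12.1, Trim Galore 0.6.7 with cutadapt, STAR, SAMtools 1.16.1, Picard 3.0.0, RSEM 1.3.1, bedtools 2.30.0, StringTie 2.2.1 and DESeq2 1.28.0, listed with no role. The deposited counts and TPM carry the name of Salmon, a quantifier that this list leaves out. Beyond that name, the counting tool was not given in the sources used here.

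Counts were rounded to whole numbers and filtered (filterByExpr, minimum count 10), and TMM scaling and the quasi-likelihood test of edgeR 4.0.16 (R 4.3.3) were run on all 12 libraries with 1 mean per group. P-values were adjusted by Benjamini-Hochberg over all 15465 genes at a threshold of 0.05. DESeq2 1.42.0, limma 3.58.1 on log2(TPM + pseudocount), other scalings, no filter, the mitochondrial share as a covariate and leaving out single libraries were alternatives. The code was tested on simulated data.

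The 31 genes, their source and role lists and the marker lists were chosen with earlier results of these data known. Every gene of the list is named. Full values go to genes past the threshold, to the 8 with the smallest p over the 3 comparisons in the submitters' design, and to C3, C4b, Hc, C9, C1qa, Mbl2 and Cfd. From the other complement genes the called ones and C7, Vsig4, Cr2, Cr1l, Fcna and Colec11 are named. C4a, Cd163, Folr2, Plin1, Itgb2, Fcnb, Cidec, Fabp4, Lyz2, Ccr2, Itgam, Cxcr2 and Retnlg were named after their values were seen. The result of 1 further gene is not reported here.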

Additional observations from a re-analysis of the deposited data

How the results depend on the processing

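Some estimates that passed no threshold changed sign. The Hc interaction of -0.03 was 0.06 with total-count scaling, and the C4b interaction of 0.39 was -0.60 with limma on log2(TPM + 1). The Combo against isotype values of Hc and C4b were negative under all 16 alternatives. Complement genes called for agoCD40 against isotype numbered 2 with DESeq2, 1 with no filter on low counts, 1 with the mitochondrial share as a covariate and 0 to 1 when single libraries were left out (1 without isotype replicate 2). No filter gave 1 for antiIL1R1 alone and 1 for Combo against agoCD40, and leaving out a library gave 0 for both. For Combo against isotype the count of 1 became 0 with total-count scaling, 0 with only the 2 groups in the fit, 7 with DESeq2, 3 with no filter, 7 with the mitochondrial covariate and 0 to 1 when single libraries were left out. It became 0 with the replicate block, where Hc had an adjusted p of 0.0709. For Combo against antiIL1R1 it became 1 with DESeq2, 4 with no filter and 1 with the covariate, and for the interaction 2 with no filter (C1qb and C1qc). DESeq2, no filter and the covariate also raised the count of all genes (with the covariate from 111 to 256 for agoCD40 and from 63 to 292 for Combo against isotype). The hepatocyte-secreted median in Combo against isotype was -0.033 with total-count scaling. In Combo against antiIL1R1 it was 0.041 with total-count scaling and 0.0071 and 0.0072 with limma on log2(TPM + 1) and log2(TPM + 0.1), beside medians of all genes of 0.19, 0.20 and 0.29. In the interaction it was 0.048, 0.049 and 0.049 under the same 3 settings. The myeloid median in agoCD40 against isotype ranged from -0.76 to -0.22 when single libraries were left out, lowest in size without isotype replicate 3. The cause of these shifts was not tested.

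The replicate numbers showed no general pairing of the libraries. Over 18 same-numbered pairs the correlation of deviations ran from -0.395 to 0.406 with a median of -0.0262. The 2 that exceeded 0.1 were isotype with antiIL1R1, at 0.401 for replicate 1 and 0.406 for replicate 2. Of 12 libraries, 4 correlated best with their own number. With 3 libraries per group this check cannot decide whether some libraries were paired. The replicate block changed no other call of a complement gene. The fit with only the groups compared cannot give an interaction and was not run for it. C8a, C9 and Mbl1 were past the threshold in Combo against isotype only under some of these settings.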

Other observations

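Itgb2 encodes the shared beta chain of the integrins that act as complement receptors CR3 and CR4 on leukocytes. It measured 8.36, 7.79 and 14.7 CPM in isotype, 8.11, 9.29 and 10.1 CPM in agoCD40, 4.19, 5.55 and 5.68 CPM in antiIL1R1 and 13.0, 13.4 and 11.6 CPM in Combo. The antiIL1R1 libraries lay below and the Combo libraries above all libraries of agoCD40. Its fitted level in antiIL1R1 was 0.50 times that in isotype (SE 0.24 on the log2 scale, edgeR adjusted p = 0.987). The log2 difference ± SE was 1.30 ± 0.24 in Combo against antiIL1R1 (edgeR adjusted p = 0.0666) and 1.47 ± 0.34 in the interaction (edgeR adjusted p = 0.286), and DESeq2 called both.

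The ficolin gene Fcnb, known from neutrophils and their precursors, was too low to be tested. It had 0 counts in all 6 isotype and antiIL1R1 libraries, 9, 9 and 3 counts in agoCD40 and 5, 12 and 10 counts in Combo. The 11 neutrophil markers summed to 13.7 to 34.9 CPM in isotype, 43.8 to 78.2 in agoCD40, 2.45 to 7.54 in antiIL1R1 and 29.7 to 67.2 in Combo. Of the 10 tested, 8 had a positive and 2 a negative value against isotype, in agoCD40 and in Combo alike. Mean Cxcr2 was 1.68 CPM in isotype, 0.49 in agoCD40 and 0.46 in Combo. Mean Retnlg was 2.17 CPM in isotype, 1.97 in agoCD40 and 1.45 in Combo.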
